A study of Mus musculus with 12 samples.

Results

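Mitochondrial ribosomal protein mRNAs were followed through 4 groups of translating RNA from mouse keratinocytes, the cells that build the epidermis, grown in culture. They were taken as the protein-coding genes of the deposited count table whose symbol begins with Mrpl or Mrps and a number, which gave 78 genes of 54532 in the table. Of these, 77 passed the filter on low counts, among 13571 genes that did. All cells carried the genotype labelled WT DP-BirA(1-584), in which a piece of desmoplakin (DP, a protein of the cell-to-cell junctions called desmosomes) is fused to the biotin ligase BirA. Confluent cells received calcium to start differentiation, at a concentration the labels give as 1.2 µM (a unit that could not be checked here and may be a slip), and doxycycline at 2 µg/mL to switch the DP(1-584)-BirA fusion on, in every group. They were then either wounded or left unwounded, and biotin was supplied for 16 h. Ribosome-bound RNA was collected on sucrose gradients and passed over neutravidin, which binds biotin. What the resin held is the cortical fraction, and what passed it is called total, although it is the depleted remainder. This gave 3 libraries each of the total and the cortical fraction from unwounded cells and of both fractions from wounded cells, titled as biological replicates. How the cells were wounded, and whether the fractions of 1 replicate number came from 1 dish, is not given in the labels.

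Mitochondria hold their own ribosome, which translates the few membrane proteins of the respiratory chain that the mitochondrial genome encodes. Its RNAs come from that genome, but all of its proteins are encoded in the nucleus, translated by cytosolic ribosomes and then imported. Some are counterparts of bacterial ribosomal proteins and the others are found only in mitochondria. Many of their mRNAs are short, and transcription factors of the ETS family (GABP), NRF1 and YY1 are known regulators of nuclear genes for mitochondrial proteins.

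Library totals ran from 8980013 to 23457548 counts, and each of the 77 tested members had at least 10 counts in every library. All 11 keratinocyte markers on the list passed the filter, with summed levels of 11000 to 21300 CPM (counts as a share of the library, scaled by edgeR's TMM factors) per library. Markers of fibroblasts summed to at most 6.47 CPM, of melanocytes to at most 2.27 CPM and of endothelium to at most 1.87 CPM. The immune list summed to 17.8 to 58.7 CPM, nearly all from Cd68, while Cd207 and Lyz2 were at 0 counts in every library. The keratinocyte sum was lowest in the unwounded total libraries (11000 to 12100 CPM), and its part in the results was not tested. One library stood apart: wounded total replicate 1 had 13117 genes with a count against 14393 to 16867 in the others. Main counts of called genes over a whole family or list that rest on the wounded total group are therefore given with and without it. Splits of these counts by length, subunit or exonic overlap are given with it only. So are calls shared between comparisons, counts of groups that did not overlap, and counts by other tests, scalings or trends.

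Per unit of gene length, most members were well above the typical gene of these libraries. The median of the members' mean FPKM (fragments scaled by gene length and library size) over the 12 libraries was 38.2, against 4 for all 11502 tested protein-coding genes. Mrpl34 and Mrpl14 of the large subunit and Mrps21 of the small subunit, all counterparts of bacterial proteins, had the highest mean levels. Mrpl34 averaged 249 FPKM (167 to 420 over the libraries), Mrps21 239 FPKM (172 to 438) and Mrpl14 211 FPKM (144 to 420). Mrpl34 lay above Mrpl14 in all libraries but wounded total replicate 3, where both stood at 420 FPKM. Mrpl34 and Mrps21 changed order between libraries, so their order is not resolved. The lowest tested members were Mrpl19 at 5.61 FPKM (4.03 to 7.25), Mrps22 at 3.95 FPKM (3.01 to 5.75) and Mrpl3 at 1.82 FPKM (1.23 to 2.43). Only Mrpl3 lay below both others in every library. The longest gene by the length given in the count table was Mrps35 (8631 bases) and the shortest Mrpl34 (607 bases). Mrpl53 (ENSMUSG00000030037, chr6:83109040-83109939 of mm10, forward strand), a subunit found only in mitochondria, was the member that did not pass the filter, with 0 counts in all 12 libraries. Exons of Ccdc142os, on the other strand, and Gm42688, on the same strand, cover 88.0% of its exonic bases in GENCODE M21, and what this did to its count was not tested.

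In unwounded cells the mitochondrial ribosomal protein mRNAs were lower in the cortical than in the total fraction. By edgeR's quasi-likelihood test with Benjamini-Hochberg adjustment over all genes, 45 of 77 members were lower and 0 were higher at an adjusted p under 0.05. The background was 14.2% of all tested genes called, 7.59% lower and 6.62% higher. A log2 fold change below 0 was seen for 69 members, and the median was -0.51 (range -1.01 to 0.48) against 0.00 over all tested genes. In 58 members the 3 cortical libraries all lay below the 3 total libraries, which held for 19.1% of all genes, and in 3 members they all lay above, against 17.1%. At an unadjusted p under 0.05, 57 members were lower and 3 higher. DESeq2 called 45 lower and 1 higher, with 16.4% of all genes called. In bulk libraries such as these, fewer cells with an mRNA and fewer copies per cell cannot be told apart, and each level is a share of its library.

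The largest decrease was in Mrpl55 (chr11:59202486-59206134, forward strand), a large-subunit protein with a bacterial counterpart. It stood at 71.3, 85.7 and 74.8 CPM in the unwounded total libraries and at 41.7, 40.7 and 32.4 CPM in the cortical ones. The groups did not overlap, and the log2 fold change was -1.01 ± 0.19 (SE, 3 libraries per group, edgeR adjusted p = 0.00273). Mrpl41 (chr2:24974117-24975098, reverse strand), a large-subunit protein found only in mitochondria, had 70.6, 75.2 and 64.6 CPM in total and 37.9, 36.5 and 31.0 CPM in cortical libraries. Its cortical libraries were near 35.1 ± 3.64 CPM (SD, n = 3) and its total libraries near 70.1 ± 5.36 CPM, a log2 fold change of -0.99 ± 0.14 (edgeR adjusted p = 0.000318). Mrpl27 (chr11:94653767-94660089, forward strand), counterpart of a bacterial protein near the site of peptide bond formation, had 119, 137 and 111 CPM in total and 74.0, 59.6 and 66.5 CPM in cortical libraries. Again the groups did not overlap (log2 fold change -0.87 ± 0.12, edgeR adjusted p = 0.000317).

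Among small-subunit members, Mrps14 (chr1:160195215-160202170, forward strand), a counterpart of a bacterial protein, had 149, 165 and 121 CPM in total and 80.9, 84.3 and 86.8 CPM in cortical libraries. It fell by 0.79 on the log2 scale (SE 0.14, edgeR adjusted p = 0.00132). Mrps18b and Mrps34, both found only in mitochondria, fell by 0.95 (SE 0.25, edgeR adjusted p = 0.0154) and 0.84 (SE 0.13, edgeR adjusted p = 0.000538). These last 2 genes share exonic bases with genes on the other strand, 30.5% for Mrps18b (with Gm16279) and 77.8% for Mrps34 (with Mapk8ip3, and on its own strand Nme3). The libraries do not keep strand, so reads from the shared bases cannot be assigned to 1 gene. Over all members the counts were similar with and without such overlap: 26 of the 46 without any shared exonic base and 19 of the 31 with some were lower, with medians of -0.51 and -0.50. Mrps18b missed the threshold without unwounded total replicate 1 (edgeR adjusted p = 0.0941) and without unwounded cortical replicate 3 (edgeR adjusted p = 0.0785). Scaling by library size alone also lost the call (edgeR adjusted p = 0.0786). So did removing a trend on coding length (edgeR adjusted p = 0.0631) or on gene length (edgeR adjusted p = 0.0807).

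**Figure D1:**
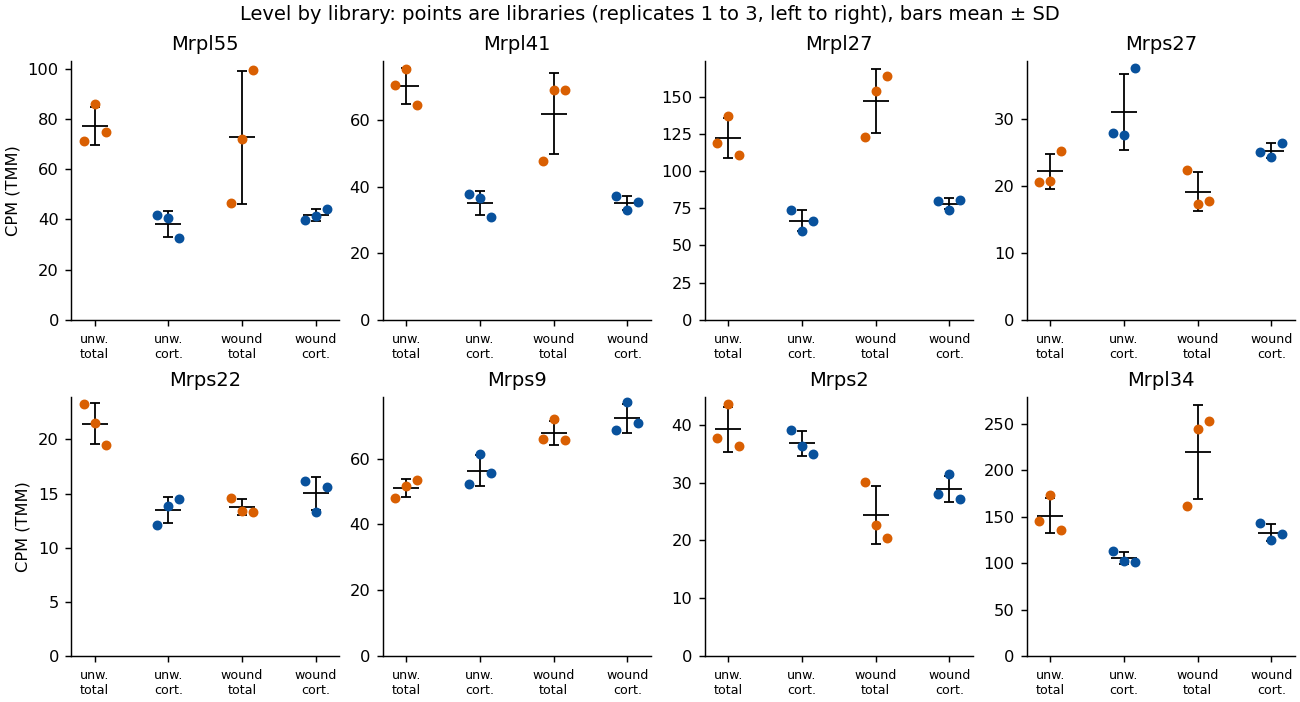
Level in CPM (TMM-scaled, linear axis from 0) of 8 members in each of the 12 libraries, with the mean and SD of each group of 3 as a bar and whiskers. Mrpl55, Mrpl41 and Mrpl27 are lower in both cortical groups than in the total groups, Mrps27 lies higher in both, and Mrps22 is high only in the unwounded total libraries.

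No member was called higher, and Mrps27 had the largest positive value. Mrps27 (chr13:99344786-99415562, forward strand) is a small-subunit protein with pentatricopeptide repeats, a fold of RNA-binding proteins, and is found only in mitochondria. Its unwounded total libraries stood at 20.6, 20.7 and 25.1 CPM and the cortical ones at 27.9, 27.6 and 37.5 CPM. All cortical libraries were above all total ones, but the log2 fold change of 0.48 ± 0.16 missed the threshold (edgeR adjusted p = 0.0535). It passed in other settings, among them DESeq2 (0.50, adjusted p = 0.0331). Exons of 6430562O15Rik on the other strand share 24.2% of its exonic bases.

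How many members were called depended on single libraries, while nearly all calls stayed lower. Without unwounded total replicate 2 the fit called 17 members lower, and without replicate 1 of that group 29. Leaving out cortical replicate 1, 2 or 3 left 25, 28 or 24 lower members. In those fits the background fell too, to 6.69% without unwounded total replicate 2 and to 8.57% to 9.21% in the other 4. Scaling by library size alone, which moves the median of all genes to 0.19, called 22 members lower and 3 higher, with a member median of -0.31. It called 15.1% of all genes.

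In wounded cells the picture was similar in size. With a background of 15.7% of all genes called (8.03% lower, 7.62% higher), 43 of 77 members were lower in the cortical fraction and 0 higher. The median was -0.46 (range -1.0 to 0.40) against 0.04 over all genes, and 65 members were below 0. All 3 cortical libraries lay below all 3 total libraries in 42 members, against 12.9% of all genes, and above them in 1 member, against 16.2%. At an unadjusted p under 0.05, 53 members were lower and 1 higher. DESeq2 called 49 lower and 0 higher, with 18.6% of all genes called. Without wounded total replicate 2, or without replicate 3, 27 were lower, with 7.66% and 10.1% of all genes called. Without replicate 1, the library that stood apart, 53 were lower and 2 higher, with 24.7% of all genes called. With library size scaling, 32 members were lower and 2 higher (20.1% of all genes called, all-gene median 0.25, member median -0.24).

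Mrps25 (chr6:92169525-92184033, reverse strand), a small-subunit protein found only in mitochondria, fell most. It had 61.8, 89.8 and 109 CPM in the wounded total libraries and 45.0, 44.0 and 41.6 CPM in the cortical ones. The cortical values were close together and the total values were not, with replicate 1 lowest, and the log2 fold change was -1.0 ± 0.15 (edgeR adjusted p = 0.000699). The gene shares 69.8% of its exonic bases with Nr2c2 on the other strand, so its count is uncertain.

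Mrps28 (chr3:8802146-8923918, reverse strand), a small-subunit protein with a bacterial counterpart whose gene shares no exonic base with another, had 87.3, 159 and 185 CPM in total and 71.8, 77.4 and 78.9 CPM in cortical libraries. Total replicates 2 and 3 were again high, and it fell by 0.92 (SE 0.19, edgeR adjusted p = 0.00369). Mrpl36 and Mrpl27, both large-subunit proteins with bacterial counterparts, fell by 0.92 (SE 0.16, edgeR adjusted p = 0.0014) and 0.91 (SE 0.12, edgeR adjusted p = 0.000461). Mrpl54, of the large subunit and found only in mitochondria, fell by 0.91 (SE 0.16, edgeR adjusted p = 0.00168) and Mrps18b by 0.98 (SE 0.25, edgeR adjusted p = 0.0139). Mrps18b missed the threshold without wounded cortical replicate 2 (edgeR adjusted p = 0.0614) and when only the wounded libraries were fitted (edgeR adjusted p = 0.0658). Library size scaling also lost this call (edgeR adjusted p = 0.0554). Mrps27 was again the member with the largest positive value. It had 22.4, 17.2 and 17.7 CPM in total and 25.0, 24.2 and 26.4 CPM in cortical libraries, without overlap, and 0.40 ± 0.16 was short of the threshold (edgeR adjusted p = 0.103).

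The 2 fraction comparisons use different libraries, and 34 members were lower in both. That was 75.6% of the members lower in unwounded cells and 79.1% of those lower in wounded cells. Over all tested genes, 573 were lower in both, 55.6% and 52.6% of the 2 lists. Another 11 members were called only in unwounded cells, 9 only in wounded cells and 23 in neither. Across the 77 members the 2 log2 ratios had a Spearman rho of 0.71, a description over genes that share their libraries.

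**Figure D2:**
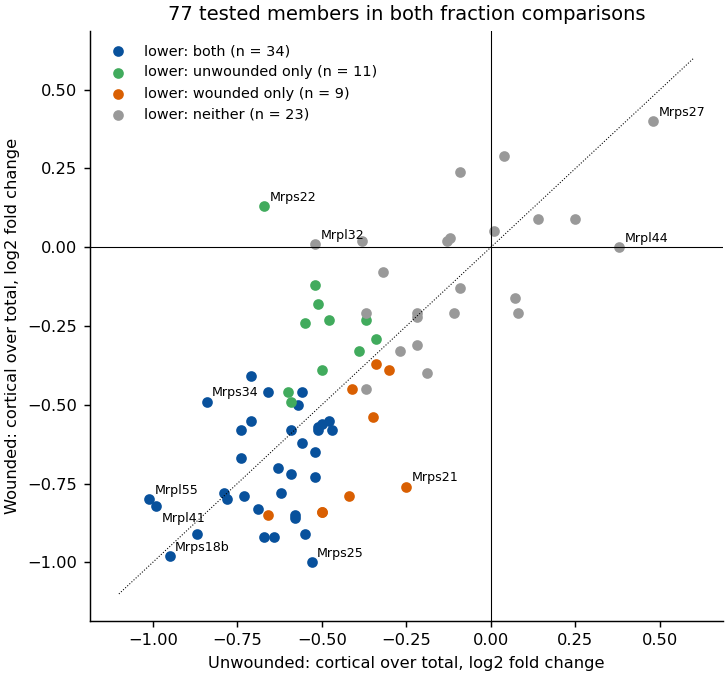
Log2 fold change of cortical over total in unwounded cells (horizontal axis) and wounded cells (vertical axis) for the 77 tested members, each a point coloured by where it was called lower (34 in both, 11 unwounded only, 9 wounded only, 23 neither). The dotted line marks equal values. Most points lie in the lower left. Mrps27 is farthest to the upper right and Mrps22 lies off the line.

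Members that were lower in both comparisons had short coding sequences. Their coding sequences (the annotated coding transcript of each gene in GENCODE M21) had a median of 489 bases, from 276 in Mrpl34 to 774 in Mrps15, against a median of 960 bases in the 23 members called in neither, from 477 in Mrpl50 to 1326 in Mrps30. As a family the members are short, with a median of 588 coding bases (195 to 1326) against 1368 over all tested protein-coding genes. Spearman's rho between coding length and the cortical log2 ratio was 0.59 over the members in unwounded cells and 0.74 in wounded cells. Over the 11398 other protein-coding genes it was 0.47 in both. These are descriptions across genes that share libraries.

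Set beside other genes of like length, members were called lower more often below 900 coding bases. In unwounded cells 17 of 23 members under 450 bases were lower (26.9% of other protein-coding genes of that length), as were 12 of 16 members of 450 to under 600 bases (25.1%) and 15 of 23 of 600 to under 900 bases (16.8%). From 900 to under 1500 bases the count was 1 of 15 (6.6%), the 1 being Mrps22. The members' medians in these 4 ranges were -0.59, -0.51, -0.48 and -0.11, against -0.40, -0.32, -0.20 and -0.02 in the other genes. In wounded cells 21 of 23, 10 of 16, 11 of 23 and 1 of 15 members were lower, against 35.7%, 26.1%, 14.9% and 5.71% of other genes. The members' medians there were -0.79, -0.56, -0.33 and 0.00, and those of the other genes -0.47, -0.28, -0.15 and 0.03.

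When a smooth trend on coding length was removed from each library before the fit, fewer members remained lower. In unwounded cells 16 were lower, all of them among the 45, and 1 was higher, with a median of -0.19 and 4.29% of all genes lower. In wounded cells 32 were lower, 31 of them among the 43, with a median of -0.27 and 7.37% of all genes lower. A trend on the gene length of the count table gave 28 lower (25 of them among the 45) and 2 higher in unwounded cells. In wounded cells it gave 43 lower (38 of them among the 43 of the uncorrected fit). Of all genes, 5.24% and 8.06% were then lower. The members' own cortical ratio had a rho of -0.27 (unwounded) and -0.54 (wounded) with mean FPKM, and -0.06 and -0.21 with GC content.

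**Figure D3:**
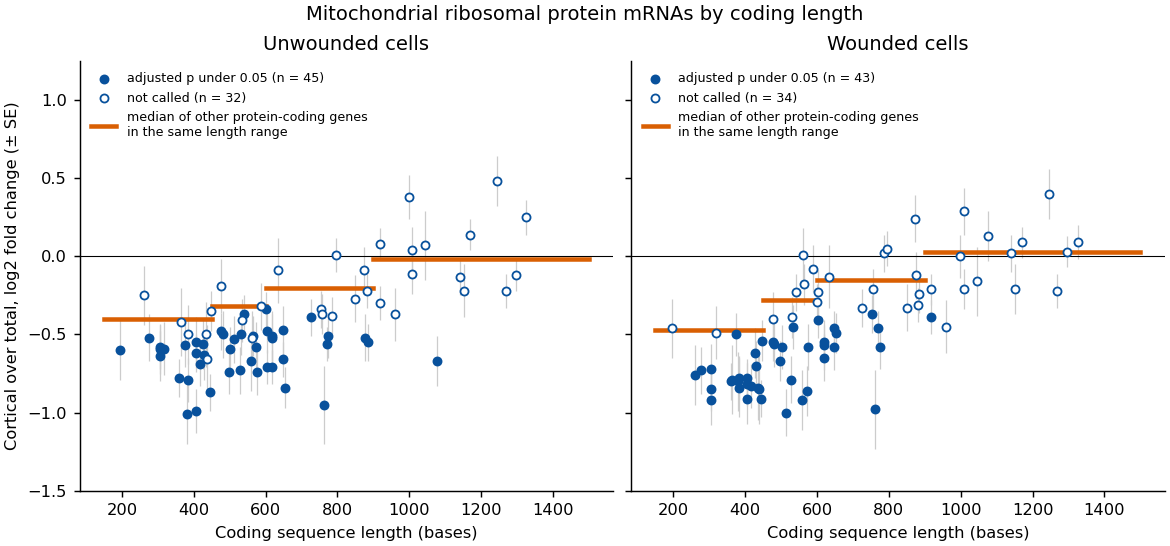
Log2 fold change of cortical over total (with SE) against coding sequence length in bases for the 77 tested members, in unwounded cells (left) and wounded cells (right). Filled points are called (45 and 43), open points are not, and orange bars give the median of other protein-coding genes in the same length range. Points rise from left to right, and below 900 bases most lie under the bars.

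Members of both subunits, with and without bacterial counterparts, were among the lower ones. Of all tested genes, 7.59% were lower in unwounded and 8.03% in wounded cells. The large subunit had 17 of 30 members with a bacterial counterpart lower in unwounded cells and 18 of 30 in wounded cells, with medians of -0.51 and -0.46. Of its 20 tested members found only in mitochondria, 8 and 10 were lower (medians -0.37 and -0.47). In the small subunit 12 and 11 of the 16 members with a bacterial counterpart were lower (medians -0.57 and -0.64), as were 7 and 3 of the 10 others (medians -0.52 and -0.42). The differences between these classes were not tested. Mrps36, which keeps the name of a ribosomal protein but is now assigned to the oxoglutarate dehydrogenase complex, had log2 ratios of -0.58 and -0.85 and was lower in both.

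Wounding changed 10 members in the total fraction, 5 in each direction. The background was 15.6% of all genes called, 8.39% higher and 7.2% lower. Groups did not overlap in 8 members that were all lower (17.6% of all genes) and in 3 that were all higher (14.5%). The members' share called was near that of all genes, and the median log2 fold change was 0.07 against -0.03 over all genes. Both subunits were among the 5 lower members. Mrps2 (chr2:28468066-28471178, forward strand), with a bacterial counterpart, had 37.8, 43.6 and 36.3 CPM in unwounded and 30.1, 22.7 and 20.4 CPM in wounded total libraries. The groups did not overlap and it fell by 0.68 (SE 0.15, edgeR adjusted p = 0.00502). Mrps22 (chr9:98588730-98601660, reverse strand), found only in mitochondria, had 23.3, 21.5 and 19.5 CPM and then 14.6, 13.4 and 13.3 CPM. These too were apart, and it fell by 0.64 (SE 0.16, edgeR adjusted p = 0.0129). Mrpl18, of the large subunit and with a bacterial counterpart, fell by 0.45 (SE 0.12, edgeR adjusted p = 0.0184). Mrpl10 and Mrpl12, which form the stalk that recruits translation factors, fell by 0.44 (SE 0.12, edgeR adjusted p = 0.0229) and 0.40 (SE 0.11, edgeR adjusted p = 0.0221). Mrpl18, Mrpl10 and Mrpl12 share 10.1%, 14.1% and 13.1% of their exonic bases with genes on the other strand. Of the 31 members with some shared exonic base 3 were lower and 0 higher, and of the 46 without any 2 were lower and 5 higher.

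Higher members were Mrps21, Mrps35, Mrpl34, Mrps9 and Mrpl45. Mrps9 (chr1:42851233-42905683, forward strand), with a bacterial counterpart, had 47.9, 51.8 and 53.4 CPM in unwounded and 65.9, 72.1 and 65.7 CPM in wounded total libraries. It was higher in all 3, by 0.41 ± 0.10 (edgeR adjusted p = 0.0131). Mrpl45 (chr11:97315716-97329920, forward strand), which holds the ribosome at the inner mitochondrial membrane, had 88.9, 98.1 and 94.8 CPM and then 114, 124 and 116 CPM. It too was apart (0.33 ± 0.10, edgeR adjusted p = 0.0269). With library size scaling both calls were lost (edgeR adjusted p = 0.0875 for Mrps9 and 0.144 for Mrpl45).

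The other 3 overlapped between the groups, since wounded total replicate 1 lay near the unwounded libraries. Mrps21 (chr3:95862634-95871519, reverse strand), a small-subunit protein with a bacterial counterpart, had 133, 205 and 149 CPM in unwounded and 167, 291 and 321 CPM in wounded total libraries (0.68 ± 0.19, edgeR adjusted p = 0.0253). Mrpl34 (chr8:71464959-71465747, forward strand) had 145, 173 and 136 CPM and then 162, 245 and 253 CPM (0.54 ± 0.15, edgeR adjusted p = 0.0186). Mrps35, of the small subunit and found only in mitochondria, rose by 0.58 ± 0.17 (edgeR adjusted p = 0.0274), from 198, 222 and 218 CPM to 209, 336 and 407 CPM.

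Leaving out wounded total replicate 1 raised the count of called members to 40, with 33 higher and 7 lower, and kept all 10 calls in their direction. The background rose to 24.9% called and 13.4% higher, and the members' median to 0.22. Mrpl51, Mrpl23, Mrpl14 and Mrps28 were then at 0.69, 0.74, 0.84 and 0.80 (edgeR adjusted p from 1.76e-06 to 8.05e-06), all short of the threshold with the library in. Without wounded total replicate 2 or 3, 3 and 6 members were called, with 10.2% and 9.91% of all genes. Without unwounded total replicate 1, 2 or 3 the counts were 1, 6 and 6, with 7.99%, 9.49% and 11% of all genes. Of the 6 fits that leave out 1 total library, 5 lost the calls of Mrpl45 and Mrps35, 4 those of Mrpl34 and Mrps21, 3 those of Mrpl10 and Mrpl18, 2 those of Mrpl12 and Mrps9 and 1 that of Mrps22, while Mrps2 was called in all 6. Library size scaling gave 3 higher and 6 lower members, with 13.4% of all genes called. Which of the wounded total libraries is typical of its group cannot be told from 3.

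**Figure D4:**
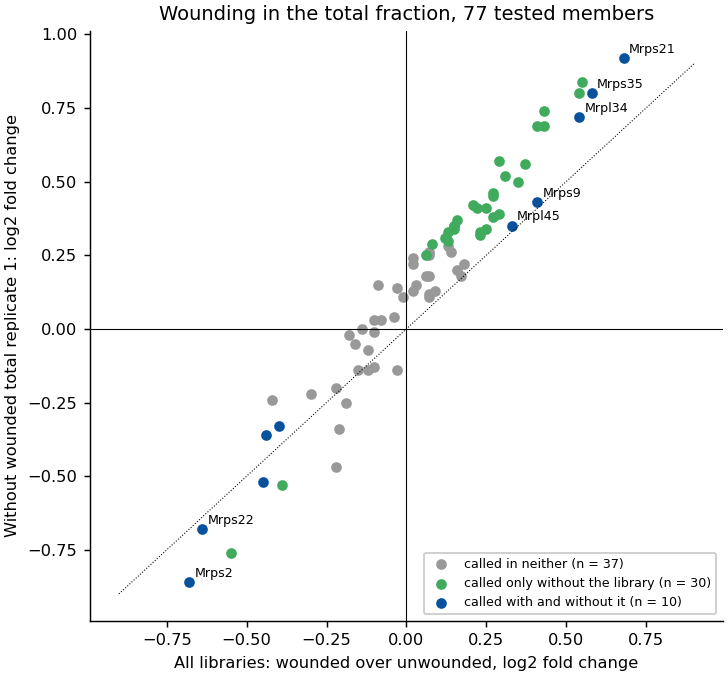
Log2 fold change of wounded over unwounded in the total fraction with all libraries (horizontal axis) and without wounded total replicate 1 (vertical axis), for the 77 tested members. Points are coloured by call (10 in both fits, 30 only without the library, 37 in neither) and the dotted line marks equal values. Most points lie above the line, and the 5 members called lower in both fits lie at the lower left.

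In the cortical fraction wounding changed 1 member, against a background of 2.48% of all genes (1.6% higher, 0.884% lower). Groups did not overlap in 9 members that were all lower (11.5% of all genes) and in 16 that were all higher (15.4%). Mrpl44 (chr1:79776018-79781445, forward strand), a large-subunit protein with the fold of an RNA-cleaving enzyme, had 37.9, 47.3 and 40.2 CPM in unwounded and 29.9, 30.8 and 24.2 CPM in wounded cortical libraries. It fell by 0.56 (SE 0.14, edgeR adjusted p = 0.0447). This call is fragile: it was lost in 10 of the 12 fits that leave out 1 library, and under library size scaling (edgeR adjusted p = 0.0973). The largest decrease was in Mrpl50, whose log2 fold change of -0.62 ± 0.17 missed the threshold (edgeR adjusted p = 0.0665). It passed in 12 of 28 alternatives, DESeq2 among them (adjusted p = 0.021). The largest positive value was that of Mrps35, 0.49 ± 0.17 (edgeR adjusted p = 0.135), which passed in 5 of 28. The members' median was 0.07 against 0.02 over all genes. Without wounded total replicate 1, which is in neither group compared but in the same fit, 6 members were called, with 9.07% of all genes. Mrpl28, Mrpl34, Mrps9 and Mrps35 were then higher and Mrpl44 and Mrpl50 lower.

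The test of whether the cortical-to-total ratio differed between wounded and unwounded cells called 0 of 77 members by edgeR, with 0.125% of all genes called. At an unadjusted p under 0.05 there were 3 higher and 2 lower members, and DESeq2 called 0, with 0.531% of all genes called. Mrps22 had the largest value, 0.80 ± 0.23 (edgeR adjusted p = 0.293). Its cortical libraries had 12.1, 13.8 and 14.5 CPM unwounded and 16.2, 13.3 and 15.6 CPM wounded. So of its 4 groups only the unwounded total one, at 19.5 to 23.3 CPM, stood away from the rest. Without wounded total replicate 1, 7 members had a lower ratio in wounded cells, with 2.93% of all genes called. They were Mrpl14, Mrpl23, Mrpl51, Mrpl52, Mrpl54, Mrps21 and Mrps25, from -0.51 to -0.75.

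Over the whole family, the members took 0.872% ± 0.035 of all counts in the unwounded total libraries (SD, n = 3), 0.714% ± 0.00755 in the unwounded cortical, 0.896% ± 0.0835 in the wounded total and 0.73% ± 0.00306 in the wounded cortical ones. The cortical libraries differed little from one another and the total libraries more. Relative to each gene's mean over the 12 libraries, the members' median log2 CPM was 0.16, 0.35 and 0.12 in the unwounded total libraries and -0.25, -0.30 and -0.29 in the unwounded cortical ones. It was -0.04, 0.38 and 0.43 in the wounded total libraries and -0.20, -0.21 and -0.18 in the wounded cortical ones. Each total library was above each cortical one, wounded total replicate 1 by the least.

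Other families were measured in the same way, and differences between families were not tested. In the cortical fraction, 7.59% of all genes were lower and 6.62% higher in unwounded cells, and 8.03% and 7.62% in wounded cells. Of 87 tested genes with the symbols of cytosolic ribosomal proteins, a few copies and paralogs among them, 10 were lower in the cortical fraction of unwounded and 27 of wounded cells, with medians of -0.21 and -0.39. Nuclear-encoded subunits of the respiratory chain (78 tested) gave 30 lower and 3 higher, then 55 lower, with medians of -0.45 and -0.73. The 13 mRNAs of the mitochondrial genome, which the mitochondrial ribosome itself translates, gave 10 and 6 lower, with medians of -1.19 and -0.58. In wounded cells without wounded total replicate 1 the lower counts were 70 of 87, 61 of 78 (3 higher) and 9 of 13 (1 higher), with 12.6% of all genes lower. With wounding, where 8.39% of all genes were higher and 7.2% lower in the total fraction, 10 of the 13 mitochondrially encoded mRNAs were lower (median -1.34). Of the 78 nuclear subunits 18 were higher and 2 lower (median 0.32), and of the 87 cytosolic ribosomal genes 6 were higher and 5 lower. Without wounded total replicate 1 (13.4% of all genes higher, 11.5% lower) these were 11 lower of 13, 56 higher and 2 lower of 78, and 50 higher and 6 lower of 87.

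**Figure D5:**
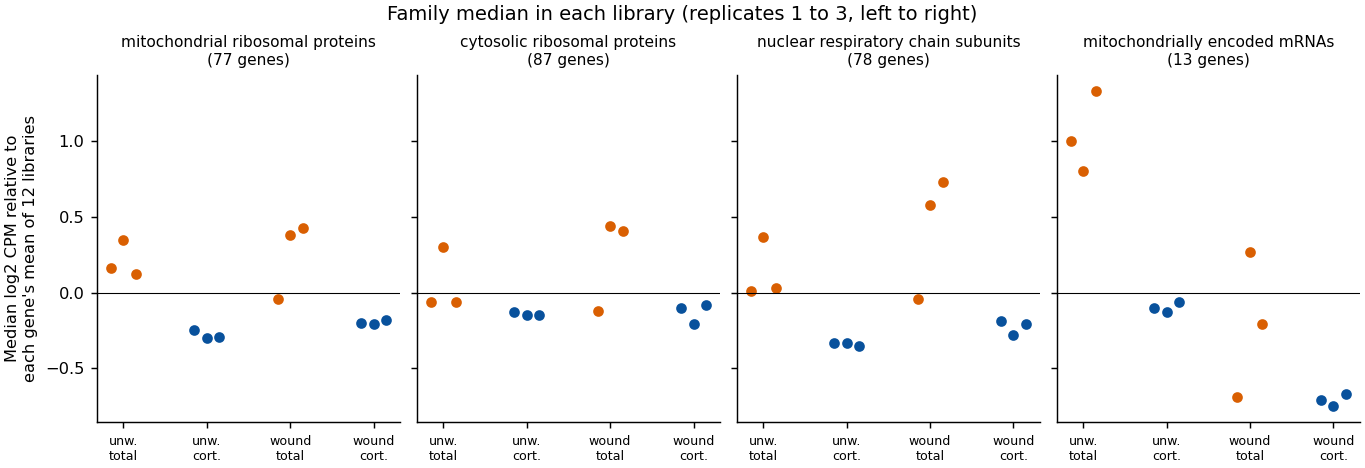
Median log2 CPM of 4 gene families in each library, relative to each gene's mean over the 12 libraries, with replicates 1 to 3 of a group from left to right and total in orange, cortical in blue. For the mitochondrial ribosomal proteins the 6 cortical libraries lie between -0.30 and -0.18 and the total libraries between -0.04 and 0.43. Wounded total replicate 1 lies lowest of its group in all 4 families.

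Among other genes of mitochondrial translation, calls went in both directions. Over all tested genes, 7.59% were lower and 6.62% higher in unwounded cells, and 8.03% lower and 7.62% higher in wounded cells. Of 5 mitochondrial ribosomal proteins with other names, 1 was lower in the cortical fraction of unwounded and 3 of wounded cells. Gadd45gip1, of the large subunit, had a log2 ratio of -0.69 ± 0.19 in both (edgeR adjusted p = 0.0231 and 0.0222), and Chchd1 and Aurkaip1, of the small subunit, had -0.74 and -0.46 in wounded cells. Of 26 tested assembly factors, 1 was higher in unwounded cells (Fastkd2, an RNA-binding protein, 0.83 ± 0.22, edgeR adjusted p = 0.0168). In wounded cells 1 was higher (Dhx30, an RNA helicase, 0.46) and 1 lower (Mterf4, which acts with a methyltransferase on ribosomal RNA, -0.46).

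Against the same shares of all genes, 2 of 15 translation factors were higher and 2 lower in unwounded cells, and 3 were higher in wounded cells. Gfm1, the elongation factor that moves the ribosome along, was higher in both (0.51 and 0.50), as was Lrpprc, which stabilises mitochondrial mRNAs (0.80 and 0.68), while the elongation factor Tsfm was lower in unwounded cells (-0.43). Of 20 mitochondrial aminoacyl-tRNA synthetases and related enzymes, 3 were higher and 0 lower in each comparison: Iars2, Pars2 and Vars2 in unwounded, Mars2, Rars2 and Tars2 in wounded cells. Of 7 genes of mitochondrial transcription, 0 were called in either by edgeR. Leaving out wounded total replicate 1, the wounded comparison called 12.1% of all genes higher and 12.6% lower. It then called 1 higher and 3 lower of the 5 ribosomal proteins with other names, and 1 higher and 3 lower assembly factors. Among translation factors 3 were higher and 1 lower, among synthetases 6 and 1, and 0 transcription genes were called.

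Among 9 tested regulators of nuclear genes for mitochondrial proteins, 3 were higher in the cortical fraction in each comparison. Of all genes, 6.62% were higher in unwounded and 7.62% in wounded cells. Pprc1, a coactivator of the PGC-1 family, had the largest ratio in both, 1.48 ± 0.14 in unwounded (edgeR adjusted p = 5.01e-06) and 1.30 ± 0.14 in wounded cells (edgeR adjusted p = 5.78e-05). The others were Yy1 (0.39) and Ppargc1b (0.92) in unwounded and Esrra (0.37) and Myc (0.61) in wounded cells. With wounding, 4 of the 9 were lower in the total fraction, against 7.2% of all genes. They were Myc (-0.75), Gabpb1, a subunit of GABP (-0.67), Esrra (-0.61) and Pprc1 (-0.48). With wounded total replicate 1 left out the same 4 were lower, and 4 regulators, Yy1 added, were higher in the cortical fraction of wounded cells. In these comparisons 11.5% of all genes were then lower and 12.1% higher.

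Promoters of the members were searched for letters of the regulators named above, and a link between these letters and the fractions was not tested. Windows of 300 bases, 250 before and 50 after a RefSeq start (GRCm38.p6), were taken for 69 of the 78 members. The RefSeq start nearest the gene start of the count table was used. It lay within 100 bases of that gene start in 51 members, but 17016 bases away in Mrpl33 and 7979 in Mrps24. The letters CCGGAAG, the core bound by the ETS family, were found on either strand in 24 of 69 windows (34.8%), against 19.3% of 9016 other tested protein-coding genes and 8.86% of all 32851 windows. GCATGCG, from the NRF1 site and nearly its own reverse complement, was in 8 windows (11.6%, against 6.8% and 3.58%). AAGATGG, from the YY1 site, was in 13 (18.8%, against 7.39% and 6.34%). The 3 motifs do not contain each other, and 36 windows (52.2%) held at least 1. The ETS letters were in 11 of 31 windows of members lower in both fraction comparisons and in 3 of 20 of those lower in neither. The NRF1 letters went the other way, with 3 of 31 and 4 of 20, and the YY1 letters were in 6 and 4. At least 1 motif was in 16 of 31 and 8 of 20, and these differences were not tested. A match is a string of letters and not a measured site.

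Mrpl27, Mrpl34, Mrps22 and Mrps27 show the ETS letters in the 120 bases before the RefSeq start, given in capitals, 5′ to 3′ on the gene's own strand. Of these Mrpl27 and Mrpl34 were lower in both fraction comparisons. Mrpl34 was also among the 3 with the highest levels per length and rose with wounding in the total fraction. Mrps22 was lower in the fraction comparison of unwounded cells only and fell with wounding in the total fraction. Mrps27 had the largest positive ratio and carries the letters on the other strand. They are Mrpl27 at chr11:94653671-94653790 (forward), Mrpl34 at chr8:71464806-71464925 (forward), Mrps22 at chr9:98601680-98601799 (reverse) and Mrps27 at chr13:99344666-99344785 (forward). The letters stand before genes called in different comparisons and before a gene that edgeR called in none with all libraries. A link to these changes was not tested.
Mrpl27: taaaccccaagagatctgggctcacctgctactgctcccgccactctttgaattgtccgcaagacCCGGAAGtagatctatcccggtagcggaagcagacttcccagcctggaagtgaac
Mrpl34: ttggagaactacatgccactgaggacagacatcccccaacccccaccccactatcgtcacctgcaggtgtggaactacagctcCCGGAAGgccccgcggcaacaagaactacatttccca
Mrps22: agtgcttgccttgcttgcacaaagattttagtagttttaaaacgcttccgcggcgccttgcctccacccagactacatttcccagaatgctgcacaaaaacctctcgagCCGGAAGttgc
Mrps27: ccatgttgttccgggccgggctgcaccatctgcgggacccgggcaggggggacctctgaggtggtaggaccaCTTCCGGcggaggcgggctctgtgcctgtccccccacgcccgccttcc

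The letters AAGATGG also occur with their ATG as the start codon. This was so in 10 of 77 tested members (13.0%) and in 604 of 11179 other tested protein-coding genes (5.4%), from the coding transcripts of GENCODE M21. The 10 were Mrpl35, Mrpl38, Mrpl46, Mrpl49, Mrps10, Mrps18a, Mrps18b, Mrps24, Mrps27 and Mrps7, a set that holds members lower in both comparisons, in 1 and in neither. Mrpl35, Mrpl49, Mrps18a, Mrps24, Mrps27 and Mrps7 are also among the promoter windows with these letters. In Mrps27, for example, the match in the window is the start codon itself. The promoter and start-codon counts are therefore not separate observations.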

How the data were processed

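Raw counts and FPKM per gene and library were taken from the tables that the authors deposited. CASAVA and HISAT2 and the build mm10 are named per the submitters' processing notes. The counting tool and annotation are not given in the sources used here. The kit does not keep strand. Groups and replicate numbers came from the titles, and the number of unused per-sample columns was 0.

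Counts were filtered with filterByExpr, scaled with TMM (factors 0.831 to 1.10) and fitted in edgeR 4.0.16 (R 4.3.3) with 1 mean per group over all 12 libraries. The 5 contrasts were tested with two-sided quasi-likelihood F tests, adjusted by Benjamini-Hochberg over 13571 genes at 0.05. CPM are TMM-scaled. Levels between genes use the deposited FPKM. Adjusted p-values of alternatives come from the tool named. Alternatives were other scalings, filters and subsets of libraries, DESeq2 1.42.0, voom, limma 3.58.1 on log2(FPKM + 1), a replicate block, and loess trends on length or GC content removed per library. Coding length came from GENCODE M21, where 54409 of 54532 identifiers were found and 98.3% of those had the same position.

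Members and gene lists were chosen with earlier results of these data known. Named members were the called ones with the largest change, up to 6 per direction and contrast. Where fewer than 2 were called in a direction, the largest value was named. The 3 highest and 3 lowest by FPKM, the longest, the shortest and those that failed the filter were added. From each list of related genes, up to 3 called genes per contrast were eligible. Members that became called without 1 library were named after their values were seen.

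Same-numbered libraries did not deviate together (r from -0.0308 to 0.219, over 0.1 in 2 of 12 pairs), so numbers were not treated as pairs. P-values measure the spread between these libraries only.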

Additional observations from a re-analysis of the deposited data

How the results depend on the processing

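The members' median kept its sign in both fraction comparisons under every alternative run, and called members were mostly lower under each. Leaving out 1 library gave 17 to 59 members called in unwounded cells (6.69% to 22.4% of all genes) and 27 to 55 in wounded cells (7.66% to 24.7%). For wounding it gave 1 to 40 in the total fraction (7.99% to 24.9%) and 0 to 6 in the cortical fraction (0.767% to 9.07%). For the interaction it gave 0 to 7 (0.0284% to 2.93%). Adding a replicate block called 42, 43, 10, 1 and 0 members and changed the call of no named member. It called 13.7%, 14.6%, 15%, 2.03% and 0.0737% of all genes. The numbers were not read as pairs. In 3 of 12 comparisons of a library with the libraries of another group, it correlated best with its own number.

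The share of all genes called follows each count in brackets. In unwounded cells 25 members were called with library size scaling (15.1%, member median -0.31). Limma called 27 on log2(FPKM + 1) (12%) and on log2(FPKM + 0.1) (11.8%). With the coding length trend removed 17 were called (9.77%, member median -0.19). With the gene length trend removed the median was -0.32, also with a replicate block. Fitting only the 2 groups compared called 24 in wounded cells (7.66%), 3 for wounding in total (9.25%) and 7 in cortical (11.3%). For wounding in total, 16 were called with no filter (11.1%) and 44 with voom quality weights (38.4%). With the gene length trend removed 21 were called (19%), and 19 when a replicate block was added to that (18.3%). Removing the coding length trend gave 23 (23.2%) and removing a GC content trend 17 (19.9%). For wounding in cortical, leaving out the filter gave 3 (2.59%) and DESeq2 gave 2 (5.42%). Restricting the fit to protein-coding genes gave 2 (3.66%). Requiring 50 counts per library on average also gave 2 (4.35%). Voom quality weights gave 7 (9.7%), and 5 were called once the coding length trend was taken out (5.48%). For the interaction, voom called 8 (6.3%). The coding length and GC trends were chosen after seeing the data. The cause was not tested.

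Overlapping genes and unstranded reads leave the counts of some members uncertain.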
